A study of Mus musculus with 4 samples.

Results

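Pol II occupancy was examined at 6 long non-coding RNA genes of the mouse, namely the microRNA host gene Mir100hg, the imprinted genes Meg3, Rian, H19 and Kcnq1ot1, and Norad. They were looked up by name among 49943 annotated genes, 12727 of them long non-coding. Every deposited Pol II peak inside their GRCm38 boundaries or within 10 kb was collected. The 6 genes were chosen by the number, fold and position of their peaks in these same lists, so those values are given as a description with no test. The rule found 30 of the 40748 peaks listed for OSS_128167-treated osteoblasts and 3 of the 1694 listed for untreated osteoblasts.

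The series holds 4 ChIP-seq samples of primary osteoblasts from young mice, in which chromatin bound by RNA polymerase II (Pol II) was recovered with an antibody and sequenced. They are 1 Pol II and 1 input library of osteoblasts treated with OSS_128167, an inhibitor of the chromatin deacylase SIRT6, and 1 of each from osteoblasts titled WT, called untreated here. In every group, stromal cells grown out of bone pieces had been turned into osteoblasts by 3 days in osteogenic medium. The treatment field names OSS_128167 for all 4 samples, so the untreated group rests on its titles, and the file of the treated Pol II library is named for SIRT6 rather than for the inhibitor. The labels give no strain, sex or dose. The input libraries were not used here. Each condition has 1 Pol II library, so no test between conditions was made and every difference below is between a pair of libraries.

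MicroRNAs are cut from hairpins in longer primary transcripts, most of which are made by Pol II. A peak over a hairpin can therefore mark polymerase on the template of that primary transcript. Imprinted genes are expressed from the chromosome of a single parent. Meg3, Rian and H19 are expressed from the maternal copy, and Kcnq1ot1 is a paternal antisense transcript that silences neighbouring genes in cis. Norad is a cytoplasmic RNA that binds Pumilio proteins and is known for its role in genome stability. The peak lists do not separate parental copies or strands.

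The hairpins named here are shown because the positions of the peaks are read against them. RefSeq (GRCm38.p6) places 9 microRNAs inside the members, and all 9 had a mature entry, 16 in all. A selection is printed, namely mature microRNAs of Mir100hg and H19 and 1 each from Meg3 and Rian, written 5′ to 3′ with the seed (bases 2 to 8) in capitals. For the hairpin of Mir100hg named Mirlet7a-2 the 3p arm is printed, and let-7a-5p is named only.
miR-100-5p: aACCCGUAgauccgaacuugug
let-7a-2-3p: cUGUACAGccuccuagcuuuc
miR-125b-5p: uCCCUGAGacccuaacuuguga
miR-125b-1-3p: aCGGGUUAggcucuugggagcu
miR-675-5p: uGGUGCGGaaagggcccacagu
miR-675-3p: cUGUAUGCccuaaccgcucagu
miR-770-5p: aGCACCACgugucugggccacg
miR-370-3p: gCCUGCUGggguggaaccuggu
The hairpins that lay wholly under a listed peak were Mir125b-1 (chr9:41581926-41582002, plus strand) and Mir675 (chr7:142577064-142577147, minus strand). In their sequences the capitals mark the mature arms.
Mir125b-1: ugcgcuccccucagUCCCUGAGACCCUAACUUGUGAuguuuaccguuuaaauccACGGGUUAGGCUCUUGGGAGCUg
Mir675: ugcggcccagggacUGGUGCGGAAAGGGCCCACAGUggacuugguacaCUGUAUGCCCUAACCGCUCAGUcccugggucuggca

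The libraries differed widely in what they list. The OSS_128167 list held 6568 peaks (16.1%) with an FDR of at most 0.05 and the untreated list 109 (6.43%), and 1378 untreated peaks (81.3%) had an FDR of 1. The authors' fold enrichment, a ratio to background, had a median of 2.87 over OSS_128167 peaks and 3.26 over untreated peaks. Fold, FDR and pileup (the height of stacked reads) are the authors' values throughout and rank peaks within their own list. Read totals are not in the lists, so depth is unknown. Of 10 osteoblast and stromal markers, 8 had a peak inside or within 10 kb in the OSS_128167 list, 6 of them at an FDR of at most 0.05. These 6 were Col1a1, Col1a2, Runx2, Sp7, Sparc and Postn. Bglap and Spp1 each had 1 peak, outside the gene, with FDRs of 0.377 and 0.753. In the untreated list 3 had a peak, namely Col1a2, Runx2 and Postn, and 0 at that limit. Alpl and Ibsp had none in either list. The OSS_128167 list also had peaks at 4 of 5 macrophage and blood markers, 1 of 3 adipocyte, 2 of 3 chondrocyte and 2 of 3 endothelial markers, and the untreated list at 0 of each. Those with an FDR of at most 0.05 were Cd68, Adgre1 and the chondrocyte marker Sox9, and 0 adipocyte or endothelial markers. Ptprc and Itgam had 1 peak each, above that limit, and Csf1r had none. By the same rule 39.7% of all annotated genes had an OSS_128167 peak, 11.7% at that limit, and 2.25% an untreated peak. Col1a1, of 16.8 kb, was under peaks over 98.2% of its length in the OSS_128167 list and Cd68, of 1.96 kb, over 81.6%. Of the 2 peaks inside Cd68, 1 had an FDR of at most 0.05. The peak of highest fold in the window of Cd68 (8.19) lay 3.16 kb outside that gene. The part of other cell types in the peaks described here was not tested.

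Mir100hg carried most of the peaks of the group, and in the OSS_128167 list most of the bases under them lay in its last part, from the hairpin of Mir125b-1 onward. In that list 4 of the 6 genes had a peak inside or within 10 kb, namely Mir100hg with 21 peaks, Kcnq1ot1 with 4, Norad with 3 and H19 with 2. By the same rule 39.7% of all annotated genes had a peak, and 32.4% of long non-coding RNA genes. Meg3 and Rian had none. In the untreated list Mir100hg had 3 peaks and the other 5 genes none, where 2.25% of all annotated genes and 1.5% of long non-coding RNA genes had a peak. These shares rest on the lists that chose the members, and nothing is read from them.

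With an FDR of at most 0.05, the OSS_128167 list kept 11 peaks at Mir100hg, 3 at Norad and 0 at H19 and Kcnq1ot1, and 11.7% of all annotated genes and 6.97% of long non-coding RNA genes had such a peak. The untreated list kept 0 at every member, and had such a peak at 0.136% of all annotated genes and 0.126% of long non-coding RNA genes. Pol II was thus listed with support after correction for multiple tests at Mir100hg and Norad, and in the OSS_128167 library alone.

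**Figure D1:**
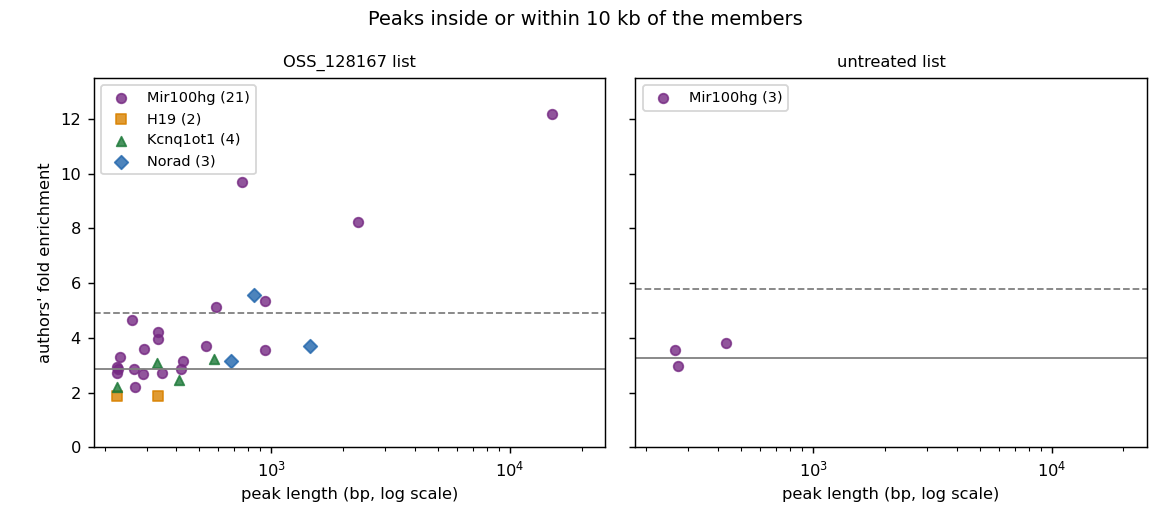
Peaks inside or within 10 kb of the members, with the OSS_128167 list on the left and the untreated list on the right. Each point is 1 peak, placed by its length (bp, log scale) and the authors' fold enrichment; the solid line is the median fold of the whole list (2.87 and 3.26) and the dashed line its 99th percentile (4.89 and 5.79). The 3 peaks of highest fold belong to Mir100hg, and the H19 peaks lie below the median of their list.

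Mir100hg (gene 73144; chromosome 9, 41376526 to 41615185) is the 239 kb host of Mir100, Mirlet7a-2 and Mir125b-1, a cluster widely expressed in mesenchymal cells. In the OSS_128167 list 18 peaks lay inside it and covered 24.4 kb, or 10.2% of its length, and in the untreated list 3 peaks covered 0.966 kb, or 0.405%. The longest OSS_128167 peak ran 15066 bp, from 41584860 to 41599925, with a fold of 12.2, an FDR of 1.09e-30 and a pileup of 40. It ranked 4th by length and 14th by fold among the 40748 peaks of that list. This peak began after 87.3% of the gene's length and ended at 93.6% of it, 15.3 kb before the annotated end.

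Around it the peaks formed an almost continuous domain. The 10 peaks between 41579873 and 41606368 covered 82.8% of those 26.5 kb, with gaps of 155 to 1290 bp, and 8 of them had an FDR of at most 0.05. The bounds of this domain were set after its peaks had been seen. The peaks next to the longest were 2299 bp with a fold of 8.24 (FDR 2.11e-15) and 751 bp with a fold of 9.70 (FDR 6.17e-18) before it, and 938 bp with a fold of 5.35 (FDR 1.03e-05) after it. The highest fold of the domain was that of the longest peak, and with 1 fold per peak the place of the highest signal within it is not given. The domain ended inside the gene. After it, 3 short peaks lay 2.13, 3.06 and 4 kb past the annotated end, with FDRs of 0.377, 0.377 and 0.676.

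Before the domain the peaks were short. RefSeq places transcript starts of Mir100hg at 41376526 and at 41474893, both on the plus strand. No OSS_128167 peak was listed over the first 103 kb, and the nearest peak to the first start was 42.3 kb away, outside the gene. The first peak inside the gene lay 5.12 kb after the second start, with a fold of 2.92 and an FDR of 0.276. Between the second start and the hairpin of Mir125b-1, a stretch of 107 kb, 11 peaks, 5 of them with an FDR of at most 0.05, covered 3.44% of the bases. Between that hairpin and the annotated end, a stretch of 33.3 kb, 8 peaks, 7 of them at that limit, covered 62.4%. The peak over the hairpin is counted in both stretches. The last stretch held 84.9% of all covered bases of the gene, but not most of its peaks.

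**Figure D2:**
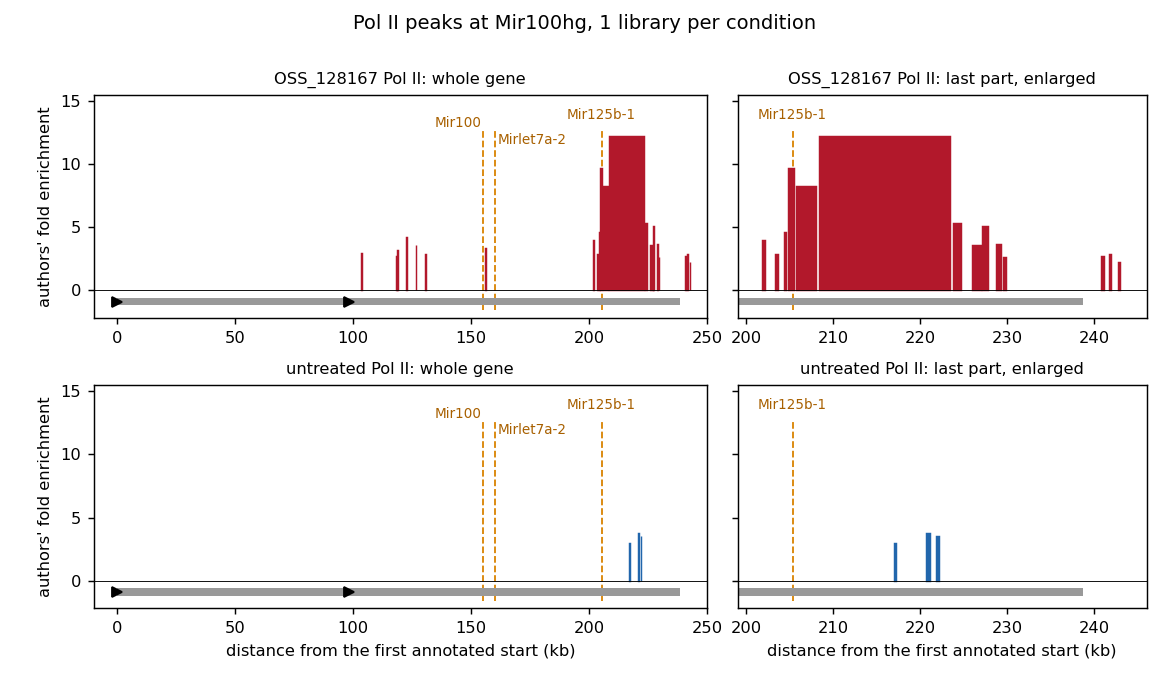
Peaks at Mir100hg in the OSS_128167 list (top) and the untreated list (bottom), along the whole gene (left) and its last part (right). The x axis is the distance from the first annotated start (kb), each bar spans 1 peak and its height is the authors' fold enrichment; the grey bar is the gene, black triangles its annotated starts and dashed lines the microRNA hairpins. The 15066 bp peak of the OSS_128167 list follows the hairpin of Mir125b-1, and the 3 untreated peaks lie within the span of that peak.

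The hairpins of this gene differed in their distance from the peaks. Mir125b-1, whose mature miR-125b is known as a regulator of osteoblast differentiation, lay wholly under the 751 bp OSS_128167 peak (fold 9.70), and 2.86 kb before the longest peak. Mir100 lay 0.956 kb from its nearest OSS_128167 peak, which was 232 bp long with a fold of 3.31 and an FDR of 0.0710. Mirlet7a-2 lay 4.03 kb from that same peak. The nearest untreated peak was 11.5 kb from Mir125b-1, 56.7 kb from Mirlet7a-2 and 62.0 kb from Mir100. Between the hairpins of Mirlet7a-2 and Mir125b-1, a stretch of 45.1 kb, OSS_128167 peaks covered 3.39% of the bases. The annotated genes Gm51670 and Gm51735 also lie inside Mir100hg, and 1 OSS_128167 peak (336 bp, fold 3.95, FDR 0.0120) overlapped Gm51670.

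The untreated peaks of Mir100hg fell in the same domain. They were 272 bp with a fold of 2.98, 431 bp with a fold of 3.81 and 263 bp with a fold of 3.54, at 217, 221 and 222 kb from the first start, and each had an FDR of 1. All 3 lay completely within the 15066 bp peak of the OSS_128167 list, and 6.13% of untreated peaks over all chromosomes overlapped a peak of that list. Chromosome 9 as a whole held 9 untreated peaks, against 2059 in the OSS_128167 list.

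Set beside genes of like length, Mir100hg was the most covered of the 281 long non-coding RNA genes over 100 kb in the OSS_128167 list. The median covered share was 0.360% and the 99th percentile 3.2%. Its lead was narrow, since the 99.8th percentile was 10.1% and its own share 10.2%. Of these long genes 82.6% had a peak inside or within 10 kb, so that a peak somewhere in so long a gene is common, and 24.2% had one with an FDR of at most 0.05. Mir100hg held 0.0754 OSS_128167 peaks per kb, against 0.0152 over its length class. It held 18 peaks inside, and the most inside any gene of the class was 28. In the untreated list Mir100hg was among the 3 most covered of the class, of which 4.98% had a peak and 0.356% a peak with an FDR of at most 0.05. The members were chosen by their peaks in these same lists, so ranks within a length class, here and below, are description alone.

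Norad had supported peaks over the lower-numbered part of the gene in the OSS_128167 list, longer than the list median of 278 bp, and none in the untreated list. The gene (347740; chromosome 2, 156388063 to 156392979) is 4.92 kb long, and OSS_128167 peaks covered 31.1% of it. A peak of 850 bp had a fold of 5.57 and an FDR of 1.01e-07, and 1 of 678 bp had a fold of 3.14 and an FDR of 0.0107, at 0.422 and 1.53 kb from the lower boundary. The remaining 2.71 kb up to the upper boundary had no peak. A further peak, 1454 bp with a fold of 3.69 and an FDR of 9.95e-04, ended 0.107 kb below the lower boundary and overlapped the ribosomal protein pseudogene Rpl21-ps9. Pseudogenes resemble their parent genes, and reads there may have been placed between copies, so that peak is uncertain.

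All 3 Norad peaks also overlap the annotated gene Gm14170, and the lists cannot assign them to either gene. Among the 7101 long non-coding RNA genes under 10 kb, 34 including Norad were covered as far or further, and 25.9% of the class had a peak inside or within 10 kb, 5.65% with an FDR of at most 0.05. At that limit 0.0845% of the class had an untreated peak. The nearest untreated peaks were 778 and 1515 kb away.

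H19 had peaks of the lowest fold in the group. The gene (14955; chromosome 7, 142575530 to 142578146) is 2.62 kb long, is known as an abundant RNA of embryonic tissues, and carries Mir675. The OSS_128167 list held a peak of 336 bp with a fold of 1.87, a p-value of 0.00992 and an FDR of 0.966, which overlapped all 84 bases of the Mir675 hairpin. That FDR is the largest in the whole list. A second peak of 226 bp had a fold of 1.87 and an FDR of 0.408.

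Both peaks combined a low fold with a pileup well up in the list. The second peak had a pileup of 24, above that of 99.3% of peaks in its list, while the 34 peaks with that pileup had a median fold of 3.46, and 5 of the 34, this peak included, had a fold as low. The first had a pileup of 11, where 36 of 2596 peaks had a fold as low and the median was 3.25. The peaks together covered 21.5% of the gene, a share that rests on 562 bp, and no untreated peak was listed within 10 kb. Igf2 and Ins2, the imprinted neighbours of H19 in the insulin family, had no peak inside or within 10 kb in either list.

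Kcnq1ot1 (63830; chromosome 7, 143213111 to 143296547) had 4 scattered OSS_128167 peaks over 83.4 kb and no untreated peak. Their folds were 2.46, 2.20, 3.09 and 3.23 and their FDRs 0.377, 0.676, 0.183 and 0.159, in order from the lower boundary. They covered 1.85% of the gene, and 319 of the 5345 long non-coding RNA genes of 10 to 100 kb, Kcnq1ot1 included, were covered as far or further. The annotated start is the upper boundary, on the minus strand, and the nearest peak to it was 10.9 kb inside the gene. In this length class 7.82% of genes had an OSS_128167 peak, and 0.168% an untreated peak, with an FDR of at most 0.05.

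Kcnq1ot1 lies wholly within Kcnq1, a potassium channel gene of 320 kb, so its peaks cannot be told apart from peaks of Kcnq1. Kcnq1 held 6 OSS_128167 peaks, 4 of them in the span of Kcnq1ot1 and 2 in the other 237 kb. Among the other imprinted genes around Kcnq1ot1, Cdkn1c, a cyclin-dependent kinase inhibitor, Slc22a18 and Ascl2 had no OSS_128167 peak inside or within 10 kb. Nap1l4 had 4, Cd81 had 3, Tssc4 had 2 and Phlda2 had 1, all with an FDR above 0.05 and in part the same peaks. The peak of Phlda2 (fold 3.23, FDR 0.159) lay 8.95 kb from it and 1.02 kb from Nap1l4. The untreated list had no peak at any of these 7 genes.

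**Figure D3:**
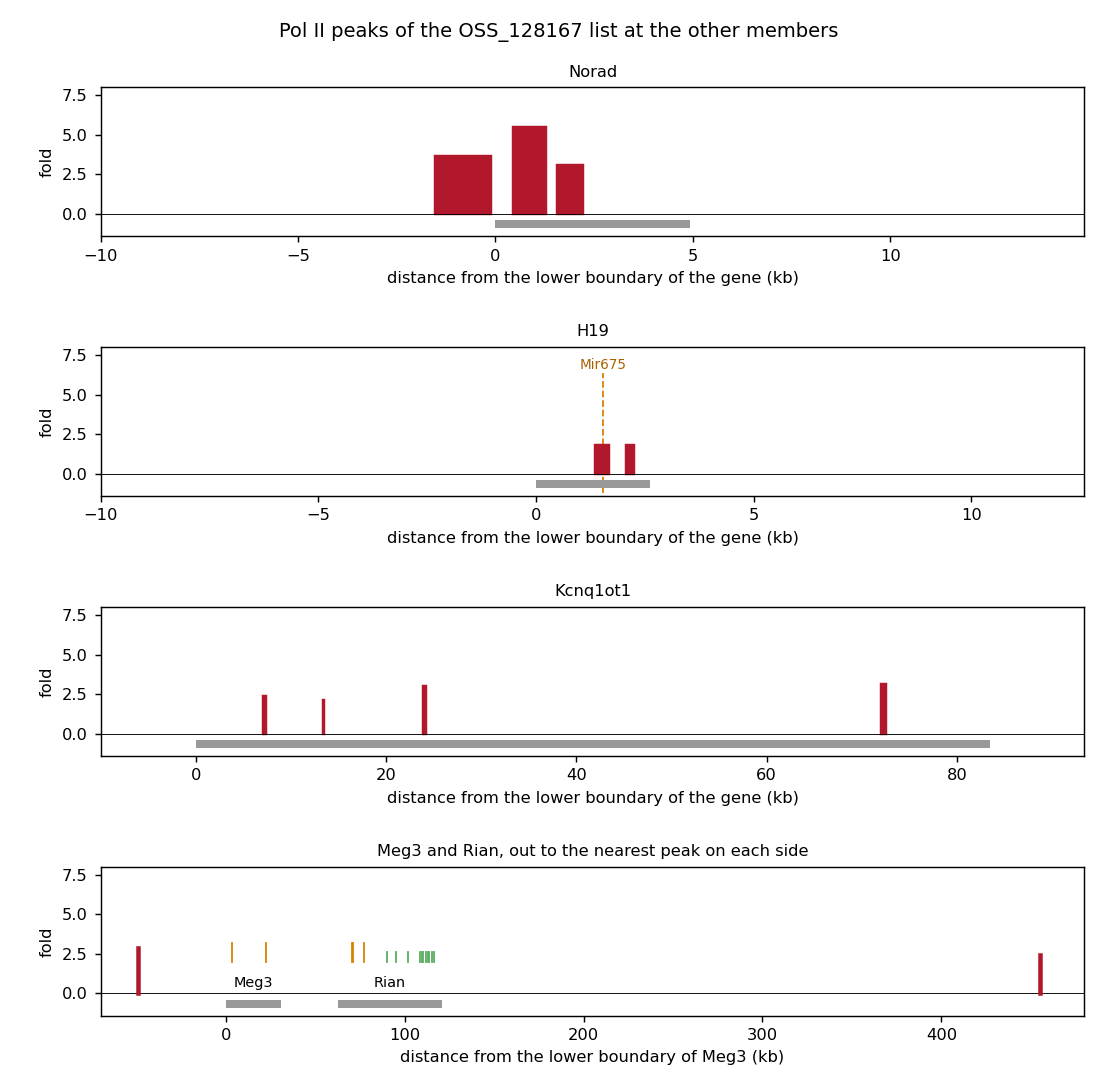
Peaks of the OSS_128167 list at Norad, H19, Kcnq1ot1, and Meg3 with Rian. The x axis is the distance from the lower boundary of the gene (of Meg3 in the lowest panel) in kb, bar height is the authors' fold enrichment, grey bars are genes, dashed or short orange lines microRNA hairpins and green lines snoRNA genes. The untreated list had no peak in any of these windows; in the lowest panel the flanking peaks are drawn as lines of fixed width at the edges of a span of 504 kb that holds no peak.

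Meg3 and Rian had no Pol II peak in either list, inside or within 10 kb. Meg3 (17263; chromosome 12, 109540996 to 109571729) and Rian (75745; 109603945 to 109661716) are 30.7 and 57.8 kb long and follow each other in the imprinted Dlk1-Dio3 domain. Of long non-coding RNA genes of 10 to 100 kb, 38.4% had an OSS_128167 peak inside or within 10 kb and 1.98% an untreated peak, so the lack of a peak is the more frequent state of such genes. The nearest OSS_128167 peak below Meg3 was 49.1 kb away, with a fold of 2.87 and an FDR of 0.377. The next above Rian was 334 kb away, with a fold of 2.41 and an FDR of 0.676.

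The gap between these peaks was 504 kb and held 91 annotated genes, of which 60 were microRNAs and 19 snoRNAs. Gaps at least as long made up 0.593% of the 40645 gaps between neighbouring OSS_128167 peaks (241 gaps, 6 of them on chromosome 12), and the median gap was 32.1 kb. This share counts gaps and not bases. A long gap holds more bases than a short one, so a given locus lies in such a gap more often than this share. The imprinted genes Dlk1, Rtl1, Mirg and Dio3 of the same domain had no peak inside or within 10 kb in either list. In the untreated list, whose chromosome 12 held 4 peaks in all, the nearest peak was 54322 kb from Meg3. With so few peaks listed, the lack of an untreated peak is not shown to be a lack of Pol II.

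The small RNAs inside the pair were accordingly far from any peak. Mir1906-1 and Mir770 in Meg3 lay 52.6 and 71.8 kb from the nearest OSS_128167 peak. Mir341, Mir1188 and Mir370 in Rian lay 120, 120 and 126 kb away, and the 11 snoRNA genes of Rian, which belong to a class that guides RNA methylation, 139 to 165 kb.

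Over all 6 genes, an OSS_128167 peak overlapped 2 of the 9 embedded microRNA hairpins and an untreated peak 0. Over the 1228 annotated microRNAs, 3.01% were overlapped by an OSS_128167 peak and 0% by an untreated peak. The overlapped hairpins were Mir125b-1, under a peak with an FDR of 6.17e-18, and Mir675, under a peak with an FDR of 0.966. At an FDR of at most 0.05 the count was 1, and 1.06% of annotated microRNAs were overlapped. Within 1 kb of a hairpin, Mir100 joined them, and 7.98% of annotated microRNAs had an OSS_128167 peak at that distance, 2.52% with an FDR of at most 0.05.

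**Figure D4:**
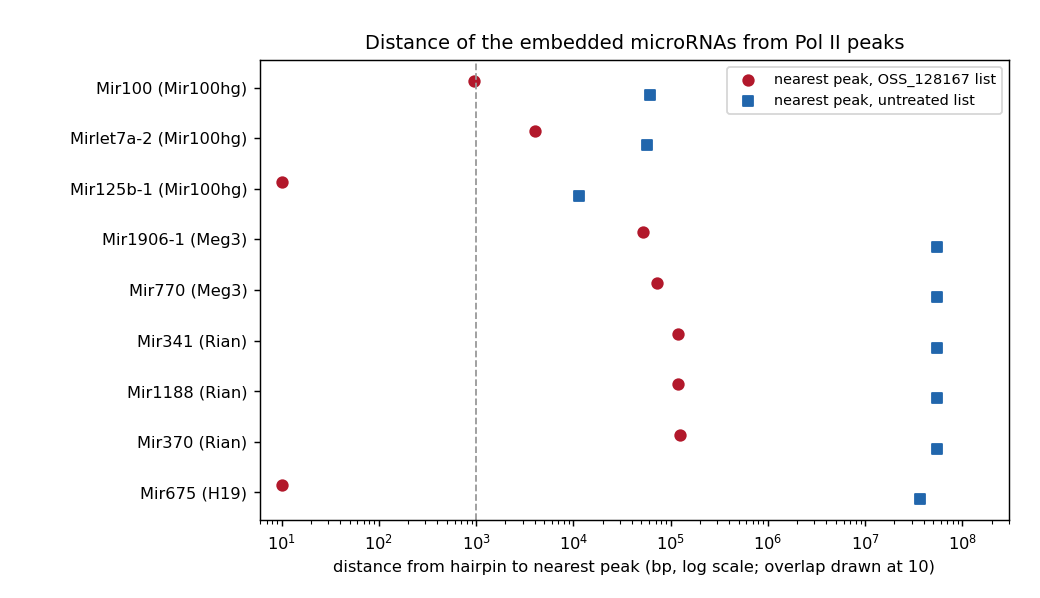
Distance from each of the 9 embedded microRNA hairpins to the nearest peak (bp, log scale), with the host gene in parentheses. Circles are the OSS_128167 list and squares the untreated list, hairpins under a peak are drawn at 10 bp, and the dashed line marks 1 kb. Mir125b-1 and Mir675 lie under an OSS_128167 peak, and the hairpins of Meg3 and Rian lie 52.6 to 126 kb from the nearest.

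The share of gene length under peaks set the members apart from each other. In the OSS_128167 list it was 31.1% at Norad, 21.5% at H19, 10.2% at Mir100hg, 1.85% at Kcnq1ot1 and 0% at Meg3 and Rian. Limited to peaks with an FDR of at most 0.05 it was 31.1% at Norad, 9.36% at Mir100hg and 0% at the other 4. In the untreated list it was 0.405% at Mir100hg and 0% elsewhere. Short genes reach a high share with few bases, since 1.53 kb were covered at Norad and 24.4 kb at Mir100hg.

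**Figure D5:**
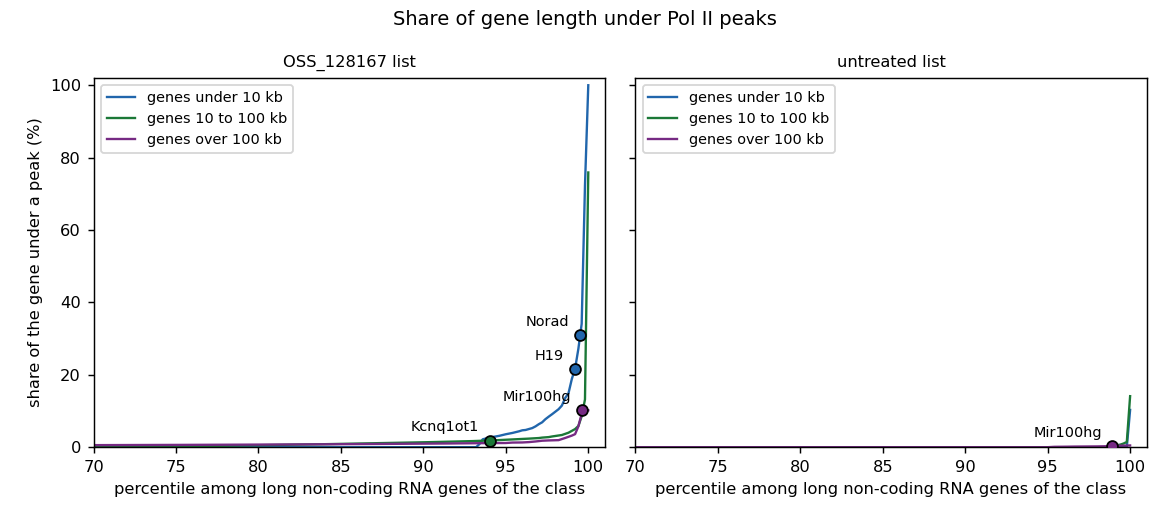
Share of gene length under Pol II peaks (%, y axis) against its percentile among long non-coding RNA genes of the same length class (x axis, from 70), for the OSS_128167 list on the left and the untreated list on the right. Lines are the classes, points the members with a share above 0, in the colour of their class; Meg3 and Rian, and in the untreated list also Norad, H19 and Kcnq1ot1, are at 0. Mir100hg, chosen by its peaks in these same lists, tops its class in the OSS_128167 list.

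Other imprinted genes and other microRNA hosts showed where the members stood among their kind. Of 43 matched imprinted genes 23 (53.5%) had an OSS_128167 peak inside or within 10 kb, 8 of them (18.6%) at an FDR of at most 0.05, and 4 (9.3%) had an untreated peak, 0 at that limit. Over all annotated genes these shares were 39.7%, 11.7%, 2.25% and 0.136%. The imprinted list holds long genes such as Kcnq1 and Trappc9, and length was not held fixed. The highest folds were 5.01 at Mest and Copg2, neighbours that share a peak lying 0.069 kb outside Mest (FDR 1.04e-06), 3.84 in Airn (FDR 0.00404), an antisense RNA that silences Igf2r, and 3.66 in H13 (FDR 0.0179). Mest, which hosts miR-335, was under OSS_128167 peaks over 37.4% of its length. The median covered share of the list was 0%, as over all annotated genes.

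Of 29 matched other microRNA hosts 22 (75.9%) had an OSS_128167 peak by the same rule, 11 (37.9%) at an FDR of at most 0.05, and 4 (13.8%) had an untreated peak, 0 at that limit. Over all annotated genes these shares were 39.7%, 11.7%, 2.25% and 0.136%. The host list holds long genes such as Dnm3 (496 kb) and Mir99ahg (229 kb), and length was not held fixed. Its genes are not independent either, since Dnm3 and Dnm3os are both counted. The median covered share of the hosts in the OSS_128167 list was 0.788%. Mir22hg, the host of miR-22, was covered over 48.4% with a top fold of 6.25 (FDR 4.64e-10). Dnm3os, the host of miR-199a and miR-214 and required for normal skeletal growth in mice, was covered over 53.5% with a top fold of 5.52 (FDR 1.27e-07), in a peak it shares with Dnm3, the gene around it. Mest, which is counted in this list too, came next with its fold of 5.01, and Dleu2 after it with a fold of 4.31 (FDR 0.00133). The hosts without an OSS_128167 peak were Mir155hg, Mir124-2hg, Mir9-3hg, Igf2, Ctdsp1, Rtl1 and Mirg, the microRNA host above Rian. None of them had an untreated peak.

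Each member's nearest peaks outside the 10 kb window bound what the rule left out. In the OSS_128167 list, Mir100hg had its next peak 11.3 kb above the upper boundary, with a fold of 2.90 and an FDR of 0.227, and H19, Kcnq1ot1 and Norad had none nearer than 117, 65.7 and 110 kb. Just inside, the outermost peak of Mir100hg at 4 kb had a fold of 2.20, and that of Norad at 0.107 kb a fold of 3.69.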

How the data were processed

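Pol II ChIP-seq peak lists of 1 OSS_128167 and 1 untreated library were analysed. The submitters' processing notes name fastp, BWA and the build mm10. How peaks were called, at which thresholds and with which use of the inputs is not given in the sources used here. Per the file headers, each deposited list gives a peak's position (counted from 1), length, fold enrichment (a ratio to background), p-value, FDR and pileup (a height of signal); these are the authors' values and were used within a list only. Depth is unknown. Genes, microRNAs and sequences came from RefSeq tables of GRCm38.p6, the assembly behind mm10; promoter entries matched 4 of the 6 members. No peak reached a transcript start given there, so the planned promoter motifs are not described. Overlap meant at least 1 bp. A peak counted for a gene if any base lay inside it or within 10 kb. Members and gene lists were chosen with earlier results of these data known; all members, their microRNAs, genes sharing their peaks and up to 4 genes of highest fold per list were named. Further genes of those lists named as neighbours of a member or as lacking a peak were picked after their values were seen. No test was made. Interval counts were tested on simulated data. Calculations used Python 3.11.15, numpy 2.4.6 and pandas 2.3.3, and plots matplotlib 3.10.9.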

Additional observations from a re-analysis of the deposited data

How the results depend on the processing

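Most changes came with the threshold on peaks. With only peaks of an FDR of at most 0.05, the OSS_128167 list had 2 members with a peak in place of 4, 14 peaks at the members in place of 30, and 1 embedded microRNA under a peak in place of 2, and the untreated list had 0 members with a peak, 0 peaks and 0% of the members' summed length covered. Among values of single genes, 7 moved at this limit and 2 when 10 kb on each side were added to the length of the gene (H19, 2.48%, and Norad, 12% covered in the OSS_128167 list). The window (gene alone or 25 kb), the peak centre and the definitions of overlap moved no count by over 1.5 times. With 1 library per condition no library could be left out. No paired analysis was possible because each condition has 1 Pol II library and no test was made. A peak that is not listed is not shown to be absent, above all in the untreated list.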

Other observations

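The relatives of the Mir100hg cluster were looked at after the values of Mir100hg had been seen. Mouse carries related clusters on chromosome 16 (Mir99a, Mirlet7c-1 and Mir125b-2) and chromosome 17 (Mir99b, Mirlet7e and Mir125a). The seed of miR-100-5p is shared with miR-99a-5p and miR-99b-5p, and that of miR-125b-5p with miR-125a-5p, miR-351-5p, miR-6367 and miR-6394; the same miR-125b-5p is made from Mir125b-1 and Mir125b-2. Of these, 4 are shown with the seed (bases 2 to 8) in capitals.
miR-99a-5p: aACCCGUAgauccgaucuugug
miR-99b-5p: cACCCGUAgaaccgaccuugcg
miR-125a-5p: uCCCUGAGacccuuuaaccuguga
miR-351-5p: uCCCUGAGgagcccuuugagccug
In the OSS_128167 list the nearest peak lay 10.8, 10.0 and 11.0 kb from Mir99a, Mirlet7c-1 and Mir125b-2, with FDRs of 0.183, 0.183 and 0.05, and 12.4, 12.2 and 11.7 kb from Mir99b, Mirlet7e and Mir125a, all 3 by the same peak with an FDR of 0.0258. The chromosome 9 cluster had its nearest peaks at 0.956, 4.03 and 0 kb. Of the 6 hairpins whose mature arm carries the seed of miR-125b-5p, 2 were under an OSS_128167 peak, Mir125b-1 (fold 9.70) and Mir351 (fold 3.23, FDR 0.159), and 0 were under an untreated peak. Mir6394 lay 0.075 kb from an OSS_128167 peak (fold 2.90, FDR 0.227), so that 3 of the 6 were within 1 kb, and Mir6367 lay 1.97 kb from its nearest. Mir99ahg, the long non-coding RNA gene next to the chromosome 16 cluster, is 229 kb long and held 8 OSS_128167 peaks over 1.42% of its length, 0 of them with an FDR of at most 0.05, and 0 untreated peaks.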
